A study of Homo sapiens with 6 samples.

Results

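The genes described here are 10 markers that are widely used to recognise stem-like cells of colorectal cancer (CRC): CD44, PROM1, EPCAM, ALCAM, LGR4, LGR5, SOX9, KLF5, BMI1 and ALDH1A3. They were taken by symbol from a table of 17047 genes, which holds all 10, and 9 of them passed the filter on low counts that kept 12959 genes for testing. LGR5 did not pass it. The table comes from RNA sequencing of HCT116, an established human colorectal carcinoma cell line, with 3 libraries carrying a non-targeting shRNA (shNC, replicates 1 to 3) and 3 carrying a PLEK2 shRNA (replicates 1 to 3), in cells with no other treatment named. PLEK2 (pleckstrin-2) is a membrane-associated protein with pleckstrin homology domains, and the study asked whether it takes part in stem-like properties of CRC cells. The study reports, by immunoblot, less CD44 and PROM1 (CD133) protein in HCT116 cells with PLEK2 shRNA. The comparison between the groups here addresses whether the mRNA of these markers differed when PLEK2 was knocked down. Protein was not measured in these libraries, so their values do not speak to protein levels. As a model, the data rest on 1 cell line and 1 shRNA sequence against PLEK2, delivered by a lentiviral vector, and the cells were not sorted on any marker or grown as spheres for these libraries, as far as the sources used here state. The labels do not say that the replicates came from separate cultures, so p-values measure the spread between these libraries.

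Cancer stem cells are the cells of a tumor that can renew themselves and give rise to the other tumor cells. In the normal intestine, stem cells at the crypt base receive Wnt signals, which R-spondins strengthen by binding the receptors LGR4 and LGR5 and so sparing Frizzled receptors from the ubiquitin ligases RNF43 and ZNRF3. SOX9 and KLF5 are transcription factors of crypt progenitor cells, BMI1 is a subunit of Polycomb repressive complex 1, ALDH1A3 is an aldehyde dehydrogenase that makes retinoic acid, and CD44, PROM1 (CD133), EPCAM and ALCAM (CD166) are surface proteins by which such cells are sorted.

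The shRNA was checked against the markers first, since a short hairpin can lower transcripts other than its target. Its target of 21 nt within PLEK2 is shown because its capitals, the site that pairs with bases 2 to 8 of the guide strand, are the letters that were searched for in the markers.
PLEK2 shRNA target: gctggtgtactacAAGCTTGa
The site AAGCTTG was in the 3′ UTR of 0 of the 10 markers and of 10.5% of 12440 tested genes (GENCODE 44 canonical transcripts, sense strand), and the full target was in 0 marker transcripts. At that share, 0 of 10 sets the markers little apart from other genes. Effects of the shRNA on transcripts other than PLEK2 were not tested. PLEK2 itself had 80.5 ± 6.98 CPM (SD, n = 3) with shNC and 27.7 ± 10.2 CPM (SD, n = 3) with PLEK2 shRNA, where CPM is the count relative to the library size after TMM scaling. The library with the least PLEK2 was PLEK2 shRNA replicate 1, with 16.02 CPM against 32.2 and 34.9 in replicates 2 and 3.

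The libraries held between 14377532 and 15602732 counts, and 1 count is therefore a small part of the level of every marker other than LGR5. In departures from the group mean over 10231 genes, same-numbered libraries of both groups resembled each other. Each marker is therefore described also within the 3 same-numbered pairs. Replicates 2 and 3 also resembled each other across the groups, with correlations of 0.361 and 0.362, against 0.561 and 0.562 for the same numbers. Of epithelial markers, KRT8 and KRT18 had mean levels of 2242 and 1861 FPKM (counts scaled to transcript length and library total) and were thus abundant in every library. Of 9 markers of leukocytes, stroma and endothelium, PTPRC is not analysed here, CD3E and PECAM1 were at or under 0.05 FPKM in every library, and CD68 was the highest at a mean of 26.9 FPKM. COL1A1 was next at 4.9 FPKM, with a log2 fold change of -0.20 (adjusted p 0.187, edgeR with the replicate number as a block). Of this list 3 genes were tested and 0 had an adjusted p under 0.05, with or without the replicate block. In such bulk libraries, fewer cells that express a marker and less of its mRNA per cell cannot be told apart.

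No change was called in any of the 9 tested markers between PLEK2 shRNA and shNC. By edgeR's quasi-likelihood test with Benjamini-Hochberg adjustment over all 12959 genes, 0 of 9 had an adjusted p under 0.05, against 0% of all genes (0 of 12959), and at an unadjusted p under 0.05 there were 0 markers and 400 genes, 3.09% of those tested (0.864% higher with PLEK2 shRNA). PLEK2 itself was not called by this test, with a log2 fold change of -1.54, an unadjusted p of 0.000158 and an adjusted p of 0.684. A high adjusted p in this fit therefore does not show that a gene was unchanged. With the replicate number as a block in the same test, again 0 of 9 markers had an adjusted p under 0.05. By contrast, 110 genes did (0.849%), PLEK2 among them, 0.123% of all genes being higher and 0.725% lower. An unadjusted p under 0.05 was then reached by 2 of 9 markers, ALCAM and ALDH1A3, both higher with PLEK2 shRNA, against 18.3% of all genes in either direction and 7.89% higher. The median log2 fold change of the 9 markers was 0.03, against -0.002 for all genes tested. In size, the median with the block was 0.0305 on the log2 scale for the markers and 0.0978 for all genes.

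**Figure D1:**
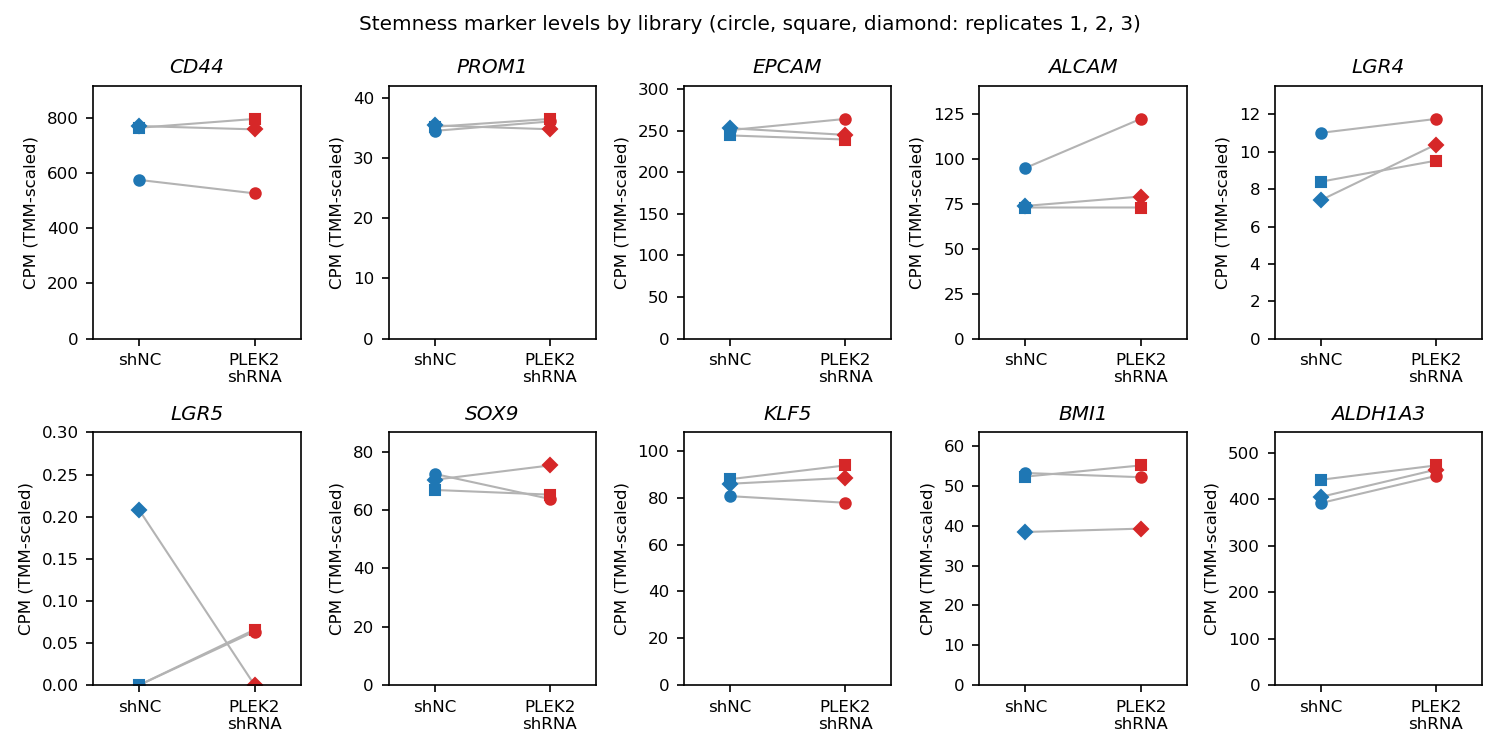
Level of each of the 10 markers in every library, in CPM after TMM scaling, on linear axes that start at 0. Blue symbols are shNC and red symbols are PLEK2 shRNA, with circles, squares and diamonds for replicates 1, 2 and 3 and grey lines joining the same number. ALDH1A3 alone has all red symbols above all blue ones (392 to 442 CPM with shNC and 450.4 to 473 CPM with PLEK2 shRNA), and CD44 and ALCAM have replicate 1 apart from replicates 2 and 3 in both groups.

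The markers spanned a wide range of expression in HCT116 cells. Levels are compared between genes in FPKM, which takes transcript length into account. CD44 had the highest mean over the 6 libraries, at 166.2 FPKM (123.31 to 191.81). EPCAM followed at 158.3 FPKM (151.94 to 171.57) and ALDH1A3 at 126.3 FPKM (111.2 to 136.53). The range of CD44 overlapped with those of EPCAM and ALDH1A3, and the ranges of EPCAM and ALDH1A3 did not overlap. In replicate 1, EPCAM was above CD44 in both groups (156.59 against 135.55 FPKM with shNC, 171.57 against 123.31 with PLEK2 shRNA). ALDH1A3, at 132.67 FPKM, was also above CD44 in PLEK2 shRNA replicate 1. These 3 genes lay above 95.5% to 96.7% of the tested genes. KLF5 (26.1 FPKM), SOX9 (18.17), ALCAM (18.15) and BMI1 (14.7) followed. The range of KLF5 lay above that of SOX9 and overlapped with that of ALCAM, whose 15.13 to 26.29 FPKM also overlapped with those of SOX9 and BMI1. PROM1 stood at 9.37 FPKM (8.89 to 9.71), near the middle of all tested genes (47.8% lay lower), and LGR4 at 1.91 FPKM (1.45 to 2.35), with 17.6% of the tested genes lower. LGR5 was at 0.015 FPKM. Among the surface markers, CD44 and EPCAM were thus well above PROM1 on the FPKM scale.

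Among the surface markers, CD44, the receptor for hyaluronan, was examined first. In shNC replicates 1, 2 and 3 it had 576, 765 and 771 CPM, and in PLEK2 shRNA replicates 1, 2 and 3 it had 527, 797 and 759 CPM. The groups overlapped throughout, and the low value in each was replicate 1. The means were 704 ± 111 CPM (SD, n = 3) with shNC and 694 ± 146 CPM (SD, n = 3) with PLEK2 shRNA. This is a log2 fold change of -0.02 (standard error 0.17, 95% interval -0.40 to 0.36), and edgeR's adjusted p was 0.995. With the replicate block the interval narrowed to -0.15 to 0.09 around -0.03. The log2 ratio within pairs was -0.13, 0.06 and -0.02 for replicates 1, 2 and 3, so 1 pair went up and the other two went down.

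PROM1, which encodes the pentaspan membrane protein CD133, was among the steadiest of the markers. It had 34.5, 35.2 and 35.4 CPM with shNC and 36.1, 36.5 and 34.8 CPM with PLEK2 shRNA, for means of 35.1 ± 0.470 and 35.8 ± 0.894 CPM (SD, n = 3 each). The ranges of the groups overlapped, and the coefficient of variation was 1.34% with shNC and 2.50% with PLEK2 shRNA. PROM1 differed by 0.03 on the log2 scale (95% interval -0.17 to 0.23, adjusted p 0.979 by edgeR), and the pairs gave log2 ratios of 0.06, 0.05 and -0.03.

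EPCAM, a homophilic adhesion molecule of epithelial cells, had 251, 244 and 253 CPM with shNC and 264, 240 and 245 CPM with PLEK2 shRNA. The highest and the lowest of the 6 values were both in the PLEK2 shRNA group. EPCAM differed between the groups by 0.00 on the log2 scale (95% interval -0.17 to 0.17, adjusted p 0.999 by edgeR), and the pairs gave 0.08, -0.03 and -0.05. Beside EPCAM, 5 of the 6 other epithelial markers tested (CDH1, KRT8, KRT18, KRT19 and CLDN4) were lower in all 3 pairs and had an unadjusted p under 0.05 in edgeR's test with the block, against 21.1% of all genes lower in all 3 pairs and 18.3% at that p in either direction. None of the 6 had an adjusted p under 0.05, with or without it, and the lowest was 0.0841, for KRT18, with the block. Their median log2 fold change was -0.20. How far they differ from EPCAM was not tested.

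ALCAM, a cell adhesion molecule of the immunoglobulin superfamily, had 95.1, 73.1 and 73.9 CPM with shNC and 122, 73.1 and 79.2 CPM with PLEK2 shRNA. Replicate 1 was the high library in both groups, and the groups overlapped, with means of 80.7 ± 12.5 and 91.6 ± 26.9 CPM (SD, n = 3 each). The log2 ratio of ALCAM was 0.36 in pair 1, 0.10 in pair 3 and near 0 (0.000114) in pair 2. The groups differed in ALCAM by 0.18 on the log2 scale (standard error 0.20, 95% interval -0.26 to 0.63, adjusted p 0.968 by edgeR). With the block this became 0.16 (standard error 0.07, 95% interval 0.01 to 0.31), and edgeR gave an unadjusted p of 0.0389 and an adjusted p of 0.243. Without PLEK2 shRNA replicate 1 and without the block, the log2 fold change was -0.08. Without replicate 1 of both groups, with the block, it was 0.055 (adjusted p 0.671 by edgeR).

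Of 23 genes that make, cut or bind the ligands and partners of CD44, EPCAM and ALCAM, 21 were tested and 0 had an adjusted p under 0.05, with or without the block. Those with an unadjusted p under 0.05 by edgeR with the block were 4 higher and 5 lower, against 18.3% of all genes in either direction and 7.89% higher. ADAM10, a protease that sheds CD44 and ALCAM from the surface, differed by 0.20 on the log2 scale, with an adjusted p of 0.109 in the same fit by edgeR. EZR encodes ezrin, which links CD44 to actin, and was the most abundant of the list at 548 FPKM. Its log2 fold change was -0.20 (adjusted p 0.119, edgeR with the block). HAS3, a hyaluronan synthase, was the next in abundance at 125 FPKM and differed by 0.04 on the log2 scale.

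Of the R-spondin receptors, LGR4 was expressed at a low level and LGR5 was close to the detection limit. LGR4 had 11.0, 8.40 and 7.41 CPM with shNC and 11.8, 9.53 and 10.4 CPM with PLEK2 shRNA, from 107 to 185 counts per library. The groups overlapped, since shNC replicate 1 was above PLEK2 shRNA replicates 2 and 3, but each PLEK2 shRNA library was above the shNC library of its number. The log2 ratios were 0.09, 0.18 and 0.49 in pairs 1, 2 and 3. LGR4 differed by 0.24 on the log2 scale (standard error 0.17, 95% interval -0.16 to 0.63, adjusted p 0.968 by edgeR), and with the block its 95% interval still held 0, from -0.02 to 0.51 (unadjusted p 0.0652, adjusted p 0.306 by edgeR). In fold terms, the block gave 1.18 with an interval from 0.988 to 1.42, the widest of the 9 markers. Without the block, the log2 difference was 0.43 without shNC replicate 1, 0.13 without shNC replicate 3 and 0.15 without PLEK2 shRNA replicate 1.

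LGR5 had 0, 0 and 3 counts with shNC and 1, 1 and 0 counts with PLEK2 shRNA. No library was above the floor of 3 counts, which corresponds to between 0.191 and 0.212 CPM, so no fold change is given, and a difference in LGR5 was not detectable at this depth. ASCL2, a Wnt-dependent transcription factor of LGR5+ stem cells, had 2 counts over all 6 libraries. Among 11 other genes of the R-spondin axis, 9 were in the table and 7 were tested, with 0 at an adjusted p under 0.05, and the receptor LGR6 and the ligand RSPO1 had 6 counts each over all libraries. RNF43 and ZNRF3, the ligases that LGR4 restrains, had log2 fold changes of -0.07 and -0.02 with the block, and the Wnt co-receptor LRP5 had -0.05. LRP6, the other Wnt co-receptor, had 43.7, 40.3 and 34.5 CPM with shNC and 50.03, 47.8 and 44.7 CPM with PLEK2 shRNA, without overlap. With the block LRP6 differed by 0.27 on the log2 scale (standard error 0.07), for which edgeR gave an unadjusted p of 0.00135 and an adjusted p of 0.0759. RSPO4, at 0.387 FPKM, differed by -0.42 on the log2 scale, with an adjusted p of 0.518 by edgeR in the same fit. RNF43 and LRP5 were the most abundant members of the axis, at 26.9 and 18.1 FPKM.

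Other intestinal stem cell genes gave no call either. Of 18 genes, 15 were in the table, 14 were tested and 0 had an adjusted p under 0.05, and the median log2 fold change was 0.05. MSI2, an RNA-binding protein of stem cells, had a log2 fold change of 0.15 (adjusted p 0.152) and TERT, the catalytic subunit of telomerase, -0.22 (adjusted p 0.249), both by edgeR with the block. CDCA7 (39.8 FPKM) and PROCR (34.1 FPKM) were the most abundant and differed by 0.03 and 0.01 on the log2 scale. Of 25 genes of differentiated intestinal cells, 17 were in the table and only 6 passed the filter on low counts. VIL1, which encodes the microvillus protein villin, had 8 counts over all libraries. CA2, a carbonic anhydrase of the colonic surface epithelium, had a log2 fold change of 0.25 (adjusted p 0.188), KRT20 of -0.42 (adjusted p 0.416) and the intestinal transcription factor CDX2 of -0.04 (adjusted p 0.843), by edgeR with the block.

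Of the transcription factors, SOX9 had 72.4, 66.9 and 70.4 CPM with shNC and 63.8, 65.3 and 75.3 CPM with PLEK2 shRNA. The 3 shNC values lay inside the range of the PLEK2 shRNA values, and the pairs moved in both directions, with log2 ratios of -0.18, -0.04 and 0.10. SOX9 differed by -0.04 on the log2 scale (95% interval -0.25 to 0.17, adjusted p 0.979 by edgeR). KLF5 had 80.7, 87.9 and 86.0 CPM with shNC and 77.9, 93.8 and 88.5 CPM with PLEK2 shRNA. Replicate 1 was the lowest library of both groups, which otherwise overlapped. KLF5 differed by 0.03 on the log2 scale (95% interval -0.18 to 0.24, adjusted p 0.981 by edgeR), with ratios of -0.05, 0.09 and 0.04 in pairs 1, 2 and 3.

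Among 15 other SOX and KLF genes, 14 were tested and 0 had an adjusted p under 0.05, with or without the block. KLF3 was higher by 0.20 (adjusted p 0.113) and KLF6 differed by -0.20 (adjusted p 0.144) on the log2 scale in edgeR's test with the block. KLF16 and KLF10, the most abundant at 43.5 and 54.4 FPKM, had log2 fold changes of -0.16 (adjusted p 0.174) and -0.00.

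BMI1, which strengthens the ubiquitin ligase activity of Polycomb repressive complex 1, was read from a locus where genes overlap. On GRCh38, BMI1 lies at chr10:22321099-22331484 on the plus strand, and the readthrough gene COMMD3-BMI1 (chr10:22316388-22329542, plus strand) begins next to the start of its upstream neighbour COMMD3 (chr10:22316386-22320306, plus strand) and overlaps BMI1 over 8444 bases. Reads in the shared exons can come from either gene. The windows around the annotated start of BMI1, the first of its 2 in the promoter table, and around that of COMMD3, from 250 bases before to 50 after (RefSeq, GRCh38.p14, plus strand), are shown because BMI1 and the readthrough gene start apart, with GC boxes (GGGCGG, both strands, overlapping matches counted) in capitals.
BMI1 start, chr10:22320849-22321148: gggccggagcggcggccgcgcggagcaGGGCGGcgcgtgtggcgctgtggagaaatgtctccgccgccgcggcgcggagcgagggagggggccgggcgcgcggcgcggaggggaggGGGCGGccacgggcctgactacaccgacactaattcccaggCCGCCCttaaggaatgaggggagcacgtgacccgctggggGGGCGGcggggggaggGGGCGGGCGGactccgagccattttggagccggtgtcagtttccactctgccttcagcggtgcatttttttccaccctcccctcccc
COMMD3 and COMMD3-BMI1 start, chr10:22316138-22316437: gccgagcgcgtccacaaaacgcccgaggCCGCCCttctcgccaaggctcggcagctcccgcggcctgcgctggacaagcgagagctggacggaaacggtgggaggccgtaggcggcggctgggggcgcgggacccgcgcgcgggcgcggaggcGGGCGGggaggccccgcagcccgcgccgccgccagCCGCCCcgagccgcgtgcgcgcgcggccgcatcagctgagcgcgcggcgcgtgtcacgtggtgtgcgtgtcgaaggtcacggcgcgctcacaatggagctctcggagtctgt
The window shown for BMI1 holds 6 GC boxes, its other window holds 5 and that of COMMD3 holds 3, and 45.0% of 35116 promoter windows of the same length hold at least 1. The promoter table has entries for 7 of the 10 markers and lacks EPCAM, LGR5 and SOX9. Some of these 7 have several starts, which gives 12 windows in all. A GC box was in 8 of the 12 windows, and the core of TCF/LEF sites (CTTTGA, both strands) was in 1 of 12, a window of PROM1, against 12.9% of all windows. Such matches describe the letters only.

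BMI1 had 53.3, 52.4 and 38.5 CPM with shNC and 52.2, 55.2 and 39.3 CPM with PLEK2 shRNA. Replicate 3 was low in both groups, which overlapped fully, with means of 48.1 ± 8.31 and 48.9 ± 8.45 CPM (SD, n = 3 each). Between the groups BMI1 differed by 0.03 on the log2 scale (standard error 0.16, 95% interval -0.34 to 0.40, adjusted p 0.994 by edgeR), and the pairs gave -0.03, 0.08 and 0.03. With the block the 95% interval was -0.11 to 0.16. The counts of BMI1 had decimals in all 6 libraries, from 555.55 in shNC replicate 3 to 840.15 in PLEK2 shRNA replicate 2, and summed to whole numbers (within 0.01) with those of COMMD3-BMI1 and COMMD3. COMMD3-BMI1 took 30.4%, 23.3% and 32.0% of the counts of BMI1 and COMMD3-BMI1 together with shNC, and 35.5%, 19.2% and 32.5% with PLEK2 shRNA. Its share was lowest in replicate 2 of both groups, so the division moved with the replicate number more than with the shRNA. The sum of all 3 genes, which does not depend on the division, was 1480.99, 1239.01 and 1115 counts with shNC and 1599, 1319 and 1166 counts with PLEK2 shRNA, highest in replicate 1 and lowest in replicate 3 of both groups. BMI1 and COMMD3-BMI1 alone, whose sum still depends on what was assigned to COMMD3, came to 76.5, 68.3 and 56.6 CPM with shNC and 81.0, 68.3 and 58.2 CPM with PLEK2 shRNA, a difference of 0.04 on the log2 scale (standard error 0.15), and edgeR's adjusted p for it was 0.985.

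**Figure D2:**
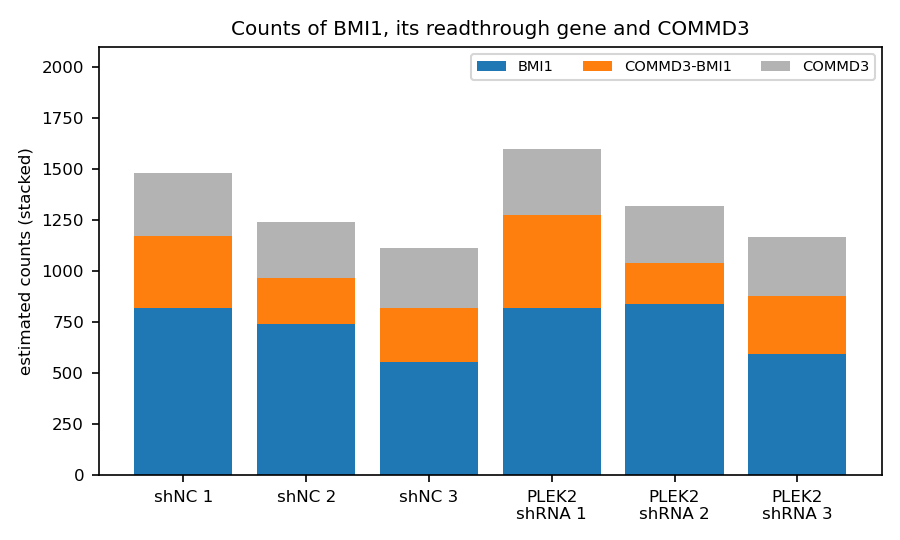
Estimated counts of BMI1 (blue), COMMD3-BMI1 (orange) and COMMD3 (grey), stacked for each of the 6 libraries on an axis from 0. The blue part ranges from 555.55 to 840.15 counts and is lowest in replicate 3 of both groups, and the orange part is lowest in replicate 2 of both.

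The other 20 genes of the list for Polycomb repressive complex 1, with COMMD3 and COMMD3-BMI1 counted in it, were all tested and 0 had an adjusted p under 0.05. RNF2, the catalytic RING partner of BMI1, had a log2 fold change of 0.19 (adjusted p 0.149) and RYBP of 0.14 (adjusted p 0.278) in edgeR's test with the block. PHC2 (77.1 FPKM) and RING1 (43.7 FPKM), the most abundant of the list, differed by -0.04 and -0.08 on the log2 scale.

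ALDH1A3 was the marker with the smallest p. It had 392, 442 and 405 CPM with shNC and 450.4, 473 and 464 CPM with PLEK2 shRNA. Every PLEK2 shRNA library was above every shNC library, by little between the highest shNC and the lowest PLEK2 shRNA value. The means were 413 ± 26.0 CPM and 462 ± 11.4 CPM (SD, n = 3 each). ALDH1A3 was the 1 of 9 markers whose groups did not overlap, against 9.19% of all genes (4.08% higher with PLEK2 shRNA), and with 3 libraries a group the smallest two-sided p an exact permutation test allows is 0.1. The log2 ratios were 0.20, 0.10 and 0.20 in pairs 1, 2 and 3. On the log2 scale ALDH1A3 differed by 0.16 (standard error 0.08, 95% interval -0.01 to 0.33), with an unadjusted p of 0.0595 and an adjusted p of 0.968 by edgeR. With the block it was 0.16 (standard error 0.05), which is 1.12-fold with a 95% interval from 1.04 to 1.21. The unadjusted p was then 0.00756 and the adjusted p 0.129 in edgeR's test, with ALDH1A3 at rank 758 among the tested genes.

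Of the other aldehyde dehydrogenases, all 16 were in the table, 13 were tested and 0 had an adjusted p under 0.05 without the block. ALDH3B1 was the 1 gene that fell with it. It had 25.9, 30.2 and 30.9 CPM with shNC and 14.2, 24.05 and 22.3 CPM with PLEK2 shRNA, without overlap, and the block put the difference at -0.54 on the log2 scale (standard error 0.10), with an adjusted p of 0.0271 by edgeR. Without the block its adjusted p was 0.968 by edgeR. ALDH3B1 oxidises fatty aldehydes, and it was at 9.14 FPKM, below the 126.3 FPKM of ALDH1A3. ALDH16A1 differed by -0.24 on the log2 scale (adjusted p 0.208, edgeR with the block). ALDH18A1 (50.1 FPKM) and ALDH1B1 (34.7 FPKM), the most abundant apart from ALDH1A3, differed by 0.03 and -0.02 on the log2 scale. ALDH1A1, the isoform most often used as a stem cell marker in the colon, had 4 counts over all 6 libraries, and ALDH1A2 had 5. ALDH1A3 was thus the ALDH1A gene that was expressed in these cells.

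The genes whose log2 CPM ran most like that of ALDH1A3 over the 6 libraries were NEO1 (Pearson r 0.983), TMEM248 (0.982) and CDK5R1 (0.978), and 19 genes had r above 0.95. These values are a description over 6 libraries that share the same groups and pairs.

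**Figure D3:**
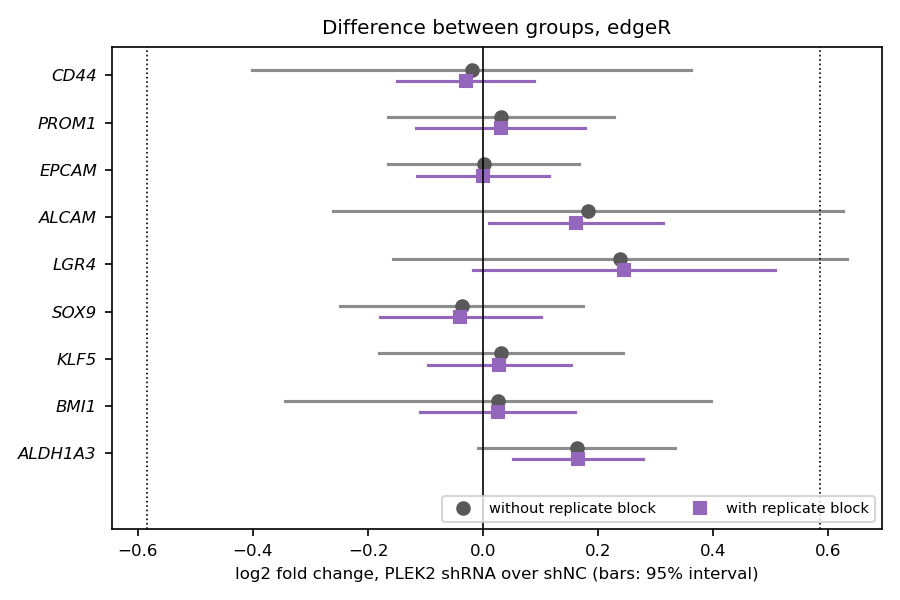
Log2 fold change of PLEK2 shRNA over shNC for the 9 tested markers, with 95% intervals, by edgeR without the replicate block (grey circles) and with it (purple squares). Dotted lines mark a change of 1.5-fold in either direction, and all 9 intervals with the block lie between them, while those of ALCAM and LGR4 without the block pass the upper line.

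For the 9 tested markers, the intervals give a range for the difference between these libraries. Those with the block rest on pairs taken from the replicate numbers and the values. With the replicate block, the 95% intervals of 9 of 9 markers lay within a change of 1.5-fold in either direction, as did those of 85.5% of all genes, and without the block those of 7 of 9 did, against 75.7% of all genes. Within pairs, 3 of 9 markers had the same sign in all 3 pairs, namely ALCAM, LGR4 and ALDH1A3, all up, and 6 had mixed signs. Among all tested genes, 41% had the same sign in all 3 pairs, 19.9% up and 21.1% down. With library totals in place of TMM the count was 5 of 9 markers, against 42.6% of all genes. With FPKM it was 4 of 9, against 41.5%. The sign of ALCAM rests on a ratio near 0 in pair 2.

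The markers were then compared between replicate numbers. Replicate 1 was set against replicates 2 and 3 because same-numbered libraries had deviated together in an earlier analysis of these data. The p-values of this contrast therefore describe a split chosen with the values known. In the fit with the block, the difference of replicate 1 from the mean of replicates 2 and 3 was larger in size than that between the groups for 6 of 9 markers, a share near that of all genes (72.5%). It had an adjusted p under 0.05 by edgeR for 5 of 9 markers, 3 higher and 2 lower in replicate 1, against 36.7% of all genes. With DESeq2 this held for 2 markers, CD44 and ALCAM, and the share of all genes by that test is not given here. What sets replicate 1 apart is not given in the labels, and its part in the differences between the groups was not tested.

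CD44 was lower in replicate 1, with 551 CPM as the mean of its 2 libraries against 773 CPM in replicates 2 and 3 (log2 difference -0.49, standard error 0.06, adjusted p 0.000129, edgeR). ALCAM was higher, with 109 against 74.8 CPM (0.53, standard error 0.07, adjusted p 0.000236, edgeR). LGR4 was also higher, with 11.4 against 8.93 CPM (0.35, standard error 0.13, adjusted p 0.0421, edgeR). In replicate 1 the mRNA of CD44 was thus lower, while that of ALCAM and LGR4 was higher. KLF5 was lower in replicate 1, with 79.3 against 89.1 CPM (-0.17, adjusted p 0.0475, edgeR), and BMI1 was higher on average (0.21, adjusted p 0.0250, edgeR), but the libraries of BMI1 overlapped because its replicate 2 was as high as replicate 1. Both replicate 1 libraries lay outside the range of the 4 other libraries for 4 of 9 markers, CD44, ALCAM, LGR4 and KLF5, against 47.3% of all genes. For PROM1 (-0.01), EPCAM (0.07), SOX9 (-0.03) and ALDH1A3 (-0.08), edgeR's adjusted p was 0.255 or higher.

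**Figure D4:**
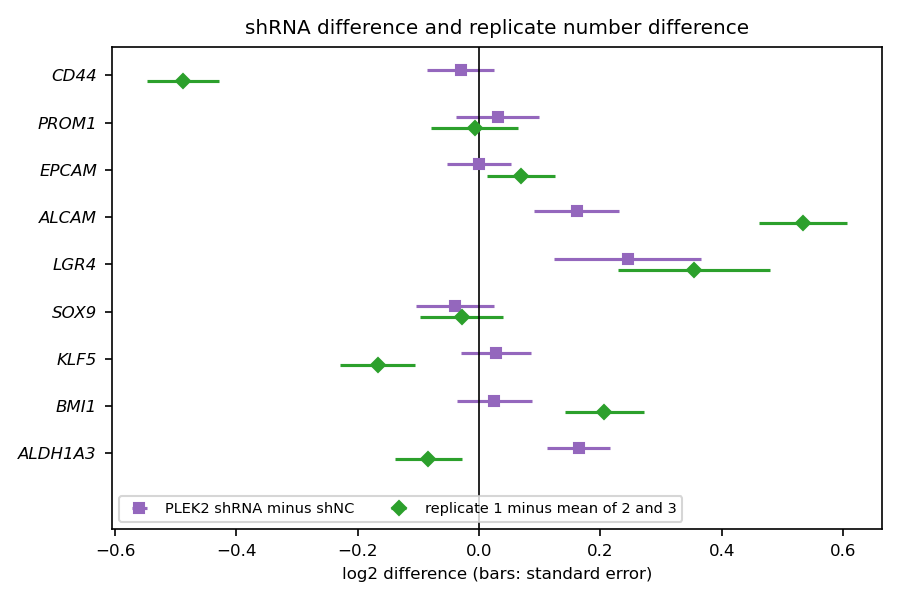
Log2 difference between PLEK2 shRNA and shNC (purple squares) and between replicate 1 and the mean of replicates 2 and 3 (green diamonds) for the 9 tested markers, both from the fit with the replicate block, with bars for the standard error. The replicate difference reaches -0.49 for CD44 and 0.53 for ALCAM, whereas the largest shRNA difference is 0.24, for LGR4.

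Transcript isoforms bear on CD44, which is spliced into a standard and several variant forms. Dividing the count by the FPKM and the library total gives the effective transcript length that the quantification assigned to a gene in a library. For CD44 this was 4176, 4073 and 4348 bases with shNC and 4359, 4160 and 4152 bases with PLEK2 shRNA, a highest value 7.03% above the lowest. The groups overlapped, and the order of the replicates differed between them. For KLF5 it was highest in replicate 2 of both groups (3381 and 3346 bases), and the highest value was 5.79% above the lowest. By the same measure PROM1 ranged over 2.25%, and the other 6 tested markers over 0.261% to 0.851%. Among 8247 genes with at least 5 FPKM in every library, the median range was 1.43%, and 16.7% of them exceeded 5%. The assigned length was not tested between the groups. The deposited values give no level of single CD44 isoforms.

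Other markers used for cancer stem cells were examined as well. Of 18 such genes, 14 were tested, 0 had an adjusted p under 0.05 with or without the block, and the median log2 fold change was 0.02. CDH1, which encodes E-cadherin, differed by -0.33 on the log2 scale (standard error 0.09), with an adjusted p of 0.0965, and NOTCH1 by -0.20 with an adjusted p of 0.113, both by edgeR with the block. ITGB1 (177 FPKM) and CD9 (143 FPKM), the most abundant, differed by 0.05 and -0.03 on the log2 scale.

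The markers lie on 9 chromosomes, and several share their locus with another gene. On GRCh38 (GENCODE 44), CD44 (NCBI Gene 960) is at chr11:35138882-35232402 on the plus strand, PROM1 (8842) at chr4:15963076-16084378 on the minus strand, EPCAM (4072) at chr2:47345158-47387601 on the plus strand and ALCAM (214) at chr3:105366909-105576900 on the plus strand. LGR4 (55366) is at chr11:27365961-27472790 on the minus strand and LGR5 (8549) at chr12:71439798-71586310 on the plus strand. SOX9 (6662) is at chr17:72121020-72126416, KLF5 (688) at chr13:73054976-73077541 and ALDH1A3 (220) at chr15:100877714-100916626, all on the plus strand, and BMI1 is NCBI Gene 648. Besides COMMD3-BMI1, the genes of the table that overlap a marker are FGFBP2, on the strand of PROM1, and TSPAN8, opposite to LGR5. Antisense RNAs annotated over CD44, LGR4, SOX9 and ALDH1A3 are not analysed here. No source states if reads were counted by strand, so a marker and its antisense partner may not have been kept apart.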

How the data were processed

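Polyadenylated RNA of 6 HCT116 libraries was sequenced as single-end reads of 50 bases. The authors deposited estimated counts per gene, not normalized, and FPKM values, read as such because the header gives no unit. The submitters' processing notes name HISAT2 2.0.4, Bowtie2 2.2.5, RSEM 1.2.12, DESeq2 1.4.5 and the build GRCm38.p6, a mouse build, although the gene identifiers are human. The coordinates here are from GRCh38 (GENCODE 44, RefSeq), and the counts may rest on another build. Whole numbers, exactly as written with no tolerance, made up 84.2% to 85.4% of a library's count values. The deposited columns of group means were not used, and 0 per-sample columns were left unassigned.

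Counts were rounded and tested with edgeR 4.0.16 (filterByExpr, TMM, quasi-likelihood F test, Benjamini-Hochberg adjustment over 12959 genes) in R 4.3.3, with limma 3.58.1 and DESeq2 1.42.0 for alternatives and Python 3.11.15 for the rest. The test used all 6 libraries without a replicate term, and its script was tested on simulated counts. The standard error is the log2 fold change divided by the square root of F, and 95% intervals use its degrees of freedom. A change was called at an adjusted p under 0.05. The replicate numbers were taken to pair libraries across groups. For 10231 genes whose mean log2 CPM exceeded 3, departures from the group mean had correlations of 0.736, 0.561 and 0.562 for same-numbered libraries and of -0.628 to 0.362 for others. This comes from the values and the shared numbers, as no source states a shared day or batch. Within groups, chi-square per gene was 3.06 to 20.2 between libraries, so none is a duplicate of another. The floor of 3 counts covers counting error only.

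The 10 markers, the gene lists and the contrast of replicate 1 with replicates 2 and 3 were chosen with earlier results of these data known. Genes named beside the markers are, in each list, those with an adjusted p under 0.05 with or without the block, the 2 with the highest mean FPKM and the 2 with the smallest p with the block, plus the 3 genes most like ALDH1A3. ZNRF3, LGR6, RSPO1, ASCL2, VIL1, ALDH1A1, ALDH1A2 and the cell type markers were named in addition, after their values were seen. A gene that the rule selects is not reported here.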

Additional observations from a re-analysis of the deposited data

How the results depend on the processing

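The count of markers past the threshold was 0 under every alternative, although DESeq2 with the replicate block gave no adjusted p for PROM1, LGR4, SOX9 and BMI1. Over the alternatives that gave one, the lowest adjusted p was 0.0673 for ALDH1A3, 0.154 for ALCAM and 0.188 for LGR4, and 0.534 or higher for the other 6. ALDH1A3, LGR4 and PROM1 kept their direction in every alternative run. With library totals in place of TMM, CD44 changed sign to 0.0090 (0.0011 with the replicate block), and 5 rather than 3 markers had the same sign in all pairs. The replicate block, the paired analysis here, changed the call of PLEK2 (log2 fold change -1.57, adjusted p 0.00106 by edgeR, against 0.684 without) and of ALDH3B1, and of no marker. PLEK2 was also called without the block by DESeq2 (adjusted p 5.09e-07) and by edgeR without PLEK2 shRNA replicate 1 (0.0106), and DESeq2 with the block gave no adjusted p for it. In edgeR's test the block raised the count of all genes called from 0 to 110, and that in the gene lists from 0 to 1. DESeq2's Wald test called 12 genes without and 74 with the replicate block, library totals with the block 192, and in the lists DESeq2 with the block called 3 and library totals with the block 2. The difference of replicate 1 was called for 2 markers, CD44 and ALCAM, with DESeq2, against 5 with edgeR. It was called for 4, without KLF5, when every library had to hold 10 counts. For DESeq2 and the filter of 10 counts, the share of all genes is not given here. The cause of these shifts was not tested.

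Leaving out 1 library at a time gave 0 to 1 genes called, and leaving out a replicate number from both groups, with the block, 528 without replicate 1, 18 without replicate 2 and 297 without replicate 3, and 0 to 6 in the lists. The log2 fold change then ranged from -0.13 to 0.14 for CD44, -0.042 to 0.030 for EPCAM, -0.11 to 0.0084 for SOX9, -0.10 to 0.16 for BMI1, -0.085 to 0.33 for ALCAM, -0.028 to 0.10 for KLF5 and 0.13 to 0.43 for LGR4 without 1 library. Without a replicate number in both groups it was -0.063 to 0.024 for CD44, -0.033 to 0.034 for EPCAM, -0.099 to 0.038 for SOX9, 0.055 to 0.25 for ALCAM, 0.15 to 0.34 for LGR4, 0.0070 to 0.073 for KLF5 and 0.011 to 0.060 for BMI1. For PROM1 it was 0.017 to 0.051 without 1 library and 0.019 to 0.069 without a replicate number in both groups. The sum of BMI1 and COMMD3-BMI1 with the block (0.04) was added after the data were seen. Depth limits LGR5, at or under 3 counts in every library.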
